A study of Mus musculus with 6 samples.

Results

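The genes described here are 9 components and regulators of the complement system, C1qa, C1qb, C1qc, C1s1, C1ra, C3, C4b, Cfb and Serping1. They were taken by symbol from the deposited gene lists, where all 9 were found among the 52081 genes that the 6 libraries share. The libraries hold single cells of the femoral fracture callus, the cartilage and bone tissue that bridges a broken femur, at 14 days post-fracture (dpf). The mice were 12 weeks old, and tamoxifen was given at 75 mg/kg on 5 days from day 5. The libraries here called control 1 to 3 carry the genotype label wt and come from Piezo1 f/f mice. The other 3, here called knockout 1 to 3, were made from Piezo1Col2a1 mice, in which an inducible Cre driven by Col2a1 regulatory sequence deletes Piezo1, a mechanically gated ion channel, in cells of the cartilage lineage. Their genotype label reads Col2CreERT; Piezo3-/-, whereas the design text of the series names Piezo1. The Cre is not designed to act in macrophages, and some osteoblasts derive from cells that once expressed Col2a1. Each library was counted as 1 sample. The labels assign each callus to a mouse, but the study's text gives differing numbers of mice per group, so whether a library pools mice cannot be told.

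Complement is a cascade of plasma proteins that tags surfaces and debris for uptake. C1q, made of the chains that C1qa, C1qb and C1qc encode, recognises antibody complexes and dying cells and is produced mainly by macrophages and related cells. It carries the proteases C1r and C1s, which in the mouse are encoded by C1ra and C1s1, and these cleave C4 (here C4b) and C2. C3 is the central component on which all activation routes converge, and Cfb encodes factor B, the protease subunit of the alternative route that amplifies C3 cleavage. Serping1 encodes C1 inhibitor, which blocks C1r and C1s. Liver is the main source of most plasma components, and fibroblasts and macrophages also make several of them.

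The libraries held 57626530 to 103784364 unique molecular identifiers (UMIs, each counting 1 captured RNA molecule) in 46944 barcodes, of which 41652 were kept as cells. Any pair of libraries shared 4 to 36 barcodes, at most 0.3833% of the smaller library. Knockout 3 stood apart, because the methods describe male mice, yet Xist reached 577.84 CPM there (counts per 1000000, the UMIs of a gene per 1000000 UMIs of all cells) against 0.099274 to 0.17009 in the other 5 libraries. Ddx3y, on the Y chromosome, was at 0 in knockout 3 and at 52.28 to 123.38 in the others. Fitted genotype differences were therefore also made without the library labelled knockout 3. Piezo1 itself was counted in stromal-like cells at 60.4, 43.2 and 54.9 CPM in control 1 to 3 and at 99.4, 41.5 and 43.9 in knockout 1 to 3. These tags come from the 3′ end of the transcript and need not fall in the deleted part, so they check nothing about the deletion.

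Cell classes were built without any complement gene and named from markers. They included 18945 stromal-like cells, 5923 endothelial-like, 4179 neutrophil-like, 3101 macrophage-like, 1664 pericyte-like, 1553 osteoclast-like, 1394 monocyte-like, 1273 dendritic-like cells with high MHC class II, 840 T and NK-like and 838 myeloid-progenitor-like cells. Stromal-like cells were clustered again into chondrocyte-like, hypertrophic-chondrocyte-like, osteoblast-like, periosteal-like, tendon-like and progenitor-fibroblast-like cells (marked by Pi16, Clec3b and Dpt), plus clusters named only by their leading genes. The makeup of the stroma differed between libraries. A cluster of few-UMI cells, whose leading genes include Mir6236, Lyz2 and S100a9, held 49.5% of stromal-like cells in control 1 and 50.5% in knockout 1, against 3.98% to 13.015% in the other libraries. In knockout 2, 36.9% of stromal-like cells were osteoblast-like and 0.830% chondrocyte-like, whereas the other libraries had 1.45% to 10.4% and 15.9% to 31.8%. Below, CPM stands for the UMIs of a gene per 1000000 UMIs of a class, summed over the class's cells in each library. Comparisons between classes are descriptions, because the classes come from the same cells, and comparisons between genotype labels are tested over libraries.

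The 3 C1q genes lie side by side on the minus strand of chromosome 4 (GRCm38, GENCODE M21), C1qb at chr4:136880129-136886187, C1qc at chr4:136889804-136893065 and C1qa at chr4:136895917-136898803. C1s1 (chr6:124530345-124542359, minus strand) and C1ra (chr6:124512405-124523443, plus strand) are neighbours on chromosome 6. Chromosome 17 holds 3 members, C4b at chr17:34728380-34743882, Cfb at chr17:34856374-34862518 and C3 at chr17:57203970-57228136, and Serping1 is at chr2:84765387-84775444, all on the minus strand. Promoter sequence from RefSeq (GRCm38.p6) was at hand for 5 members. Each was searched on both strands, 250 bases before the start, for AGGAAGT (a PU.1 type ETS site, PU.1 being a myeloid factor), TTGCNNAA (C/EBP), TGANTCA (AP-1), TTCNNNGAA (STAT) and CCAAT (NF-Y). The 4 promoters with a match, from macrophage genes (C1qb, C1qc), a stromal gene (C1s1) and a gene of both (C3), are shown 5′ to 3′ in the direction of the gene with the match in capitals, and the stretch printed for C1qc is the 99 bases that lie outside its transcripts.
C1qb, chr4:136886201-136886450, minus strand: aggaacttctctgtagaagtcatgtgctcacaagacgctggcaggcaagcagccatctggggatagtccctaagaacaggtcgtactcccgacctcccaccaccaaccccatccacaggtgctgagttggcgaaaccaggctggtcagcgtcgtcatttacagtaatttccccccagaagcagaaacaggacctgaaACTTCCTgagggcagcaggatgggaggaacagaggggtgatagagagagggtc
C1qc, chr4:136893066-136893164, minus strand: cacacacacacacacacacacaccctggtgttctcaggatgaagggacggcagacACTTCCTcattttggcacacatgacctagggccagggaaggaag
C1s1, chr6:124542360-124542609, minus strand: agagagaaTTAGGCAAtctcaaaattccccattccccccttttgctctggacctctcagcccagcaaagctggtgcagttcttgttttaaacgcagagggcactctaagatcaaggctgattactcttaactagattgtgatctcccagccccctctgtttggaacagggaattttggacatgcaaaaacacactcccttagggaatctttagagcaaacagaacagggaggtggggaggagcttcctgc
C3, chr17:57228137-57228386, minus strand: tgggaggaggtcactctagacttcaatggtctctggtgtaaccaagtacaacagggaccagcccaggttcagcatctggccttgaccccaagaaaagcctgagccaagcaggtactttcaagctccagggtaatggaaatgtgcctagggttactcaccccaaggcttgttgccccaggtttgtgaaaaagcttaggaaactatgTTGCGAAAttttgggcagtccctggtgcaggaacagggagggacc
In C1qb the capitals mark AGGAAGT on the opposite strand, 53 to 47 bases before the start, and in C1qc the same motif lies 195 to 189 bases before the start. In C1s1 they mark TTGCNNAA on the opposite strand at 242 to 235 bases, and in C3 the same motif on the gene's strand at 45 to 38 bases before the start. C1ra held 0 of the 5 motifs. Of 27025 promoters of the same length, 7.8% held AGGAAGT, 9.55% TTGCNNAA, 6.87% TGANTCA, 7.18% TTCNNNGAA and 34.5% CCAAT, so the matches are a description of these sequences only.

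C1q transcripts were concentrated in the macrophage-like class and in classes related to it. In macrophage-like cells C1qa, the A chain, stood at 2976, 2011 and 2014 CPM in control 1 to 3 and at 2042, 4928 and 3423 in knockout 1 to 3. C1qb, the B chain, stood at 3059, 2274 and 1900 in controls and 1866, 4668 and 3595 in knockouts. C1qc, the C chain, stood at 2101, 1378 and 1038 in controls and 1291, 2746 and 2204 in knockouts. For each chain knockout 2 was the highest library and the groups overlapped. Knockout 1 lay within the range of the controls for C1qa and C1qc and below all of them for C1qb. The chains took nearly fixed parts of the C1q sum, with medians over libraries of 38.2% for C1qa, 38.1% for C1qb and 24.1% for C1qc in macrophage-like cells.

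The dendritic-like class was close to the macrophage-like class, with a C1q sum of 6376, 2325 and 6155 CPM in control 1 to 3 and 6389, 6695 and 7018 in knockout 1 to 3. This was 41.1% to 124% of the macrophage-like level of the same library, so the order of these 2 classes was not fixed across libraries. Of the dendritic-like cells, 764 lay in a cluster with Ms4a7 among its leading genes and 509 in a cluster with Cd209a among them. The macrophage markers Ms4a7, Mrc1 and Pf4 had medians of 57.8%, 44.9% and 22.9% of the macrophage-like level there. Dendritic cells and macrophages with high MHC class II are thus not told apart in this class. A cycling cluster led by Hist1h2ap held 21.2% to 92.3% of the macrophage-like level, below the dendritic-like class in 5 of 6 libraries and above it in control 2 (3117 CPM). Below these the levels dropped steeply. Osteoclast-like cells had sums between 161 and 382 CPM, 2.12% to 4.74% of the macrophage-like level, and monocyte-like cells between 70.1 and 329 except in knockout 1, where 68 cells gave 1248. Neutrophil-like, T and NK-like, endothelial-like, pericyte-like and stromal-like cells overlapped one another, with medians of 0.55% to 1.41% of the macrophage-like level.

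**Figure D1:**
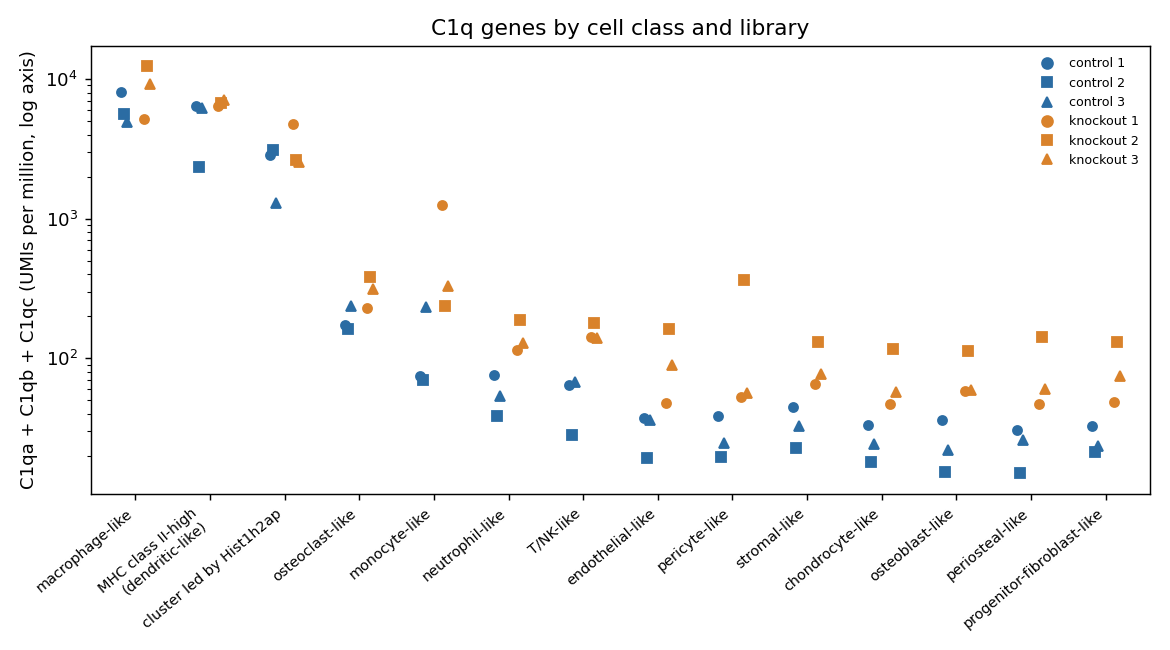
Summed C1qa, C1qb and C1qc level (CPM, log axis) in each cell class, 1 point per library, with control and knockout libraries in separate colours. Macrophage-like and dendritic-like cells lie at 2325 or above in all libraries, while stromal-like cells lie between 22.6 and 131.

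In the stromal-like class the C1q sum was 44.4, 22.6 and 32.5 CPM in control 1 to 3 and 65.3, 131 and 76.7 in knockout 1 to 3. The macrophage-like level of the same library was 183, 250 and 152 times as high in controls and 79.6, 94.1 and 120 times as high in knockouts. The small stromal amount held the chains in parts of 37.9%, 40.9% and 23.4% (medians for C1qa, C1qb and C1qc), close to those in macrophage-like cells. Other macrophage genes were present in stromal-like cells at like fractions of their macrophage-like level. C1q was at 0.40% to 1.26% with a median of 0.74%, Pf4 (a chemokine of platelets and tissue macrophages) had a median of 0.73%, Mrc1 (the mannose receptor) 0.64% and Ms4a7 0.63%. All 10 macrophage markers together summed to 211 to 404 CPM in stromal-like cells against 7228 to 7838 in macrophage-like cells, and none of them was at 0.

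**Figure D2:**
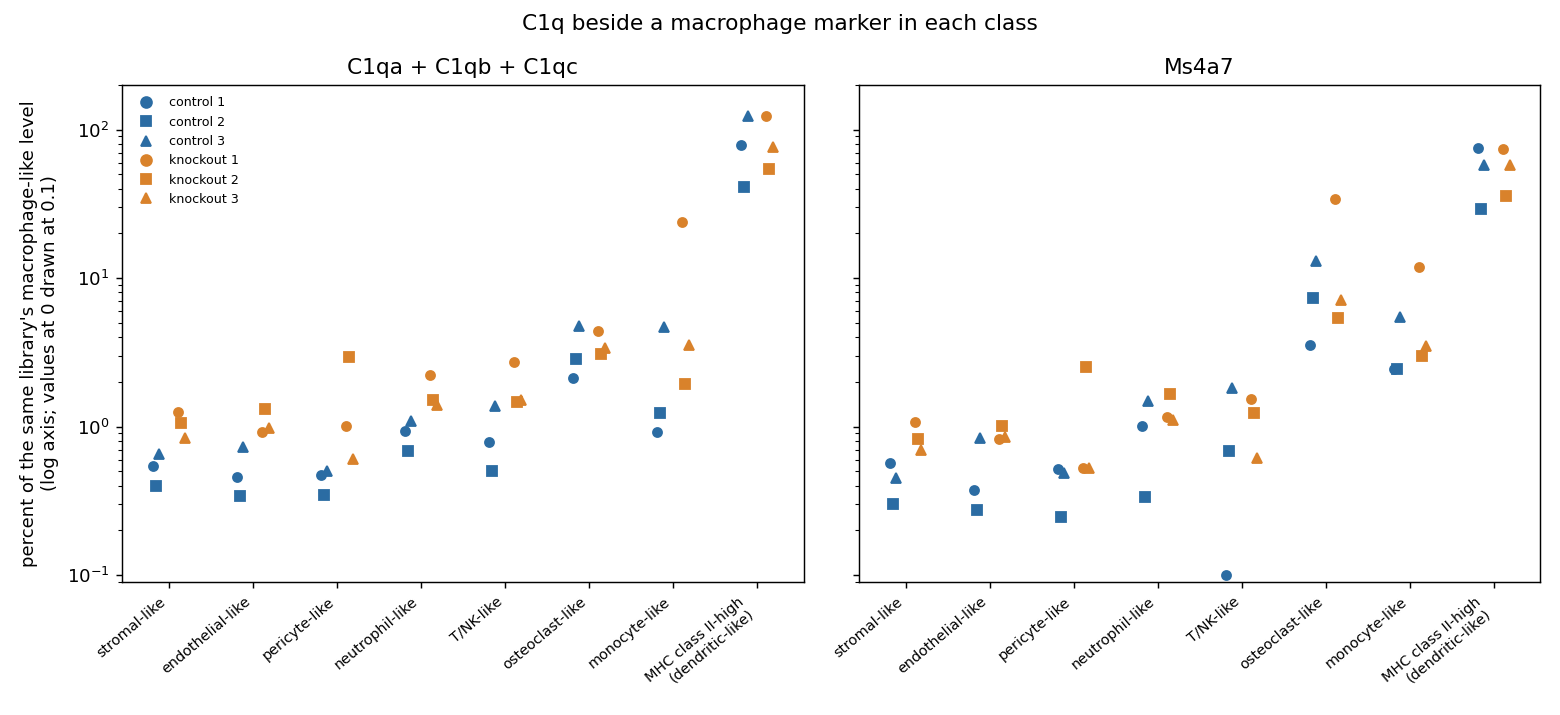
C1q and a macrophage marker in each class as a percentage of the macrophage-like level of the same library (log axis, values at 0 drawn at 0.1), 1 point per library. In stromal-like cells C1q (0.40% to 1.26%) and the marker lie in the same range.

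Shares of cells with a C1q UMI were also compared at matched depth. Each cell was thinned to 500 UMIs, and 73.5% of macrophage-like cells (median over libraries) then held a C1q UMI, against 55.5% of dendritic-like, 7.5% of stromal-like, 7.2% of neutrophil-like, 5.8% of pericyte-like and 3.0% of endothelial-like cells. Without thinning the shares were 88.2% for macrophage-like, 47.6% for stromal-like and 29.6% for neutrophil-like cells. Median depths were 5122 to 16451 UMIs in macrophage-like cells, 1111.5 to 13091 in stromal-like cells and 1439.5 to 5271 in neutrophil-like cells. Without the stromal clusters led by few-UMI cells or by genes of other cells, the thinned stromal share had a median of 4.0%. The thinned share of 7.5% was thus near that of neutrophil-like cells, and the 4.0% lay between the endothelial-like and pericyte-like shares. Whether the stromal shares come from expression in stromal-like cells or from free RNA was not tested.

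The C1 proteases and C1 inhibitor had the opposite distribution. C1s1, the protease C1s, stood at 456, 493 and 318 CPM in progenitor-fibroblast-like cells of control 1 to 3 and at 433, 350 and 345 in knockout 1 to 3. In pericyte-like cells, the mural cells of small vessels, it stood at 356, 409 and 512 in controls and 362, 188 and 137 in knockouts. Among the named stromal subtypes, periosteal-like cells followed with 106 to 170 in all 6 libraries. These values place the first 2 classes level with each other in controls and both above periosteal-like cells, except that pericyte-like cells of knockout 3 overlapped the periosteal-like range. Chondrocyte-like cells had 9.40 to 36.8, osteoblast-like cells 1.56 to 15.8 and macrophage-like cells 1.14 to 8.80 CPM.

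C1ra, the protease C1r, was also highest in progenitor-fibroblast-like cells. It stood at 214, 232 and 175 CPM in progenitor-fibroblast-like cells of control 1 to 3 and at 232, 235 and 196 in knockout 1 to 3. Periosteal-like cells had 92.6, 89.9 and 77.7 in controls and 114, 111 and 101 in knockouts, and pericyte-like cells 66.3, 65.1 and 96.8 in controls and 132, 44.6 and 33.1 in knockouts. The periosteal-like and pericyte-like ranges overlapped, and periosteal-like cells were the higher ones in 4 of 6 libraries. Macrophage-like cells had 3.70 to 10.6. Each of the C1 proteases has a near copy in the mouse genome. Of the 91-base windows in the last 500 bases of the transcript, 2.44% of those of C1s1 were found in C1s2 and 11% of those of C1ra in C1rb, so reads shared with the copy are uncertain for both.

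Serping1, which encodes the inhibitor of these proteases, was highest where they were. Progenitor-fibroblast-like cells had 1485, 1570 and 806 CPM in control 1 to 3 and 1741, 1580 and 1024 in knockout 1 to 3. Pericyte-like cells had 697, 715 and 925 in controls and 1360, 548 and 492 in knockouts, and periosteal-like cells 209 to 336. Of the stromal Serping1 UMIs, the cluster led by Olfr810 and Cxcl5 held a median of 5.4% (2.6% to 47.4%) beside 2.1% of stromal-like cells. Periosteal-like cells held 17.7% beside 10.5% of cells, and the Gdpd2-led cluster 7.0% beside 5.4%. In control 3 the Olfr810-led cluster held 47.4% from 12430132 UMIs of all genes, and periosteal-like cells 13.2% from 4854373. The Gdpd2-led cluster held 11.6% there from 2719521, and in control 1 it held 1.4% from 1262744 against 15.8% from 7632070 in periosteal-like cells. In control 2 tendon-like cells held 15.7% from 1969421, against 26.3% from 5015121 in periosteal-like cells. In control 3 tendon-like cells held 0.096% from 104831. Periosteal-like cells thus did not rank next in every library, and neither did the Gdpd2-led cluster or tendon-like cells. Chondrocyte-like cells had 14.1 to 69.9 and osteoblast-like cells 17.8 to 64.7, ranges that overlapped. After thinning, Serping1 was found in 47.1% of progenitor-fibroblast-like, 28.3% of pericyte-like and 8.3% of stromal-like cells, against 0.7% of macrophage-like and 0.4% of neutrophil-like cells. For C1s1 the thinned shares were 17.9% of progenitor-fibroblast-like and 17.4% of pericyte-like cells against 0.2% of macrophage-like cells, and for C1ra 9.0% and 3.7% against 0.1%.

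**Figure D3:**
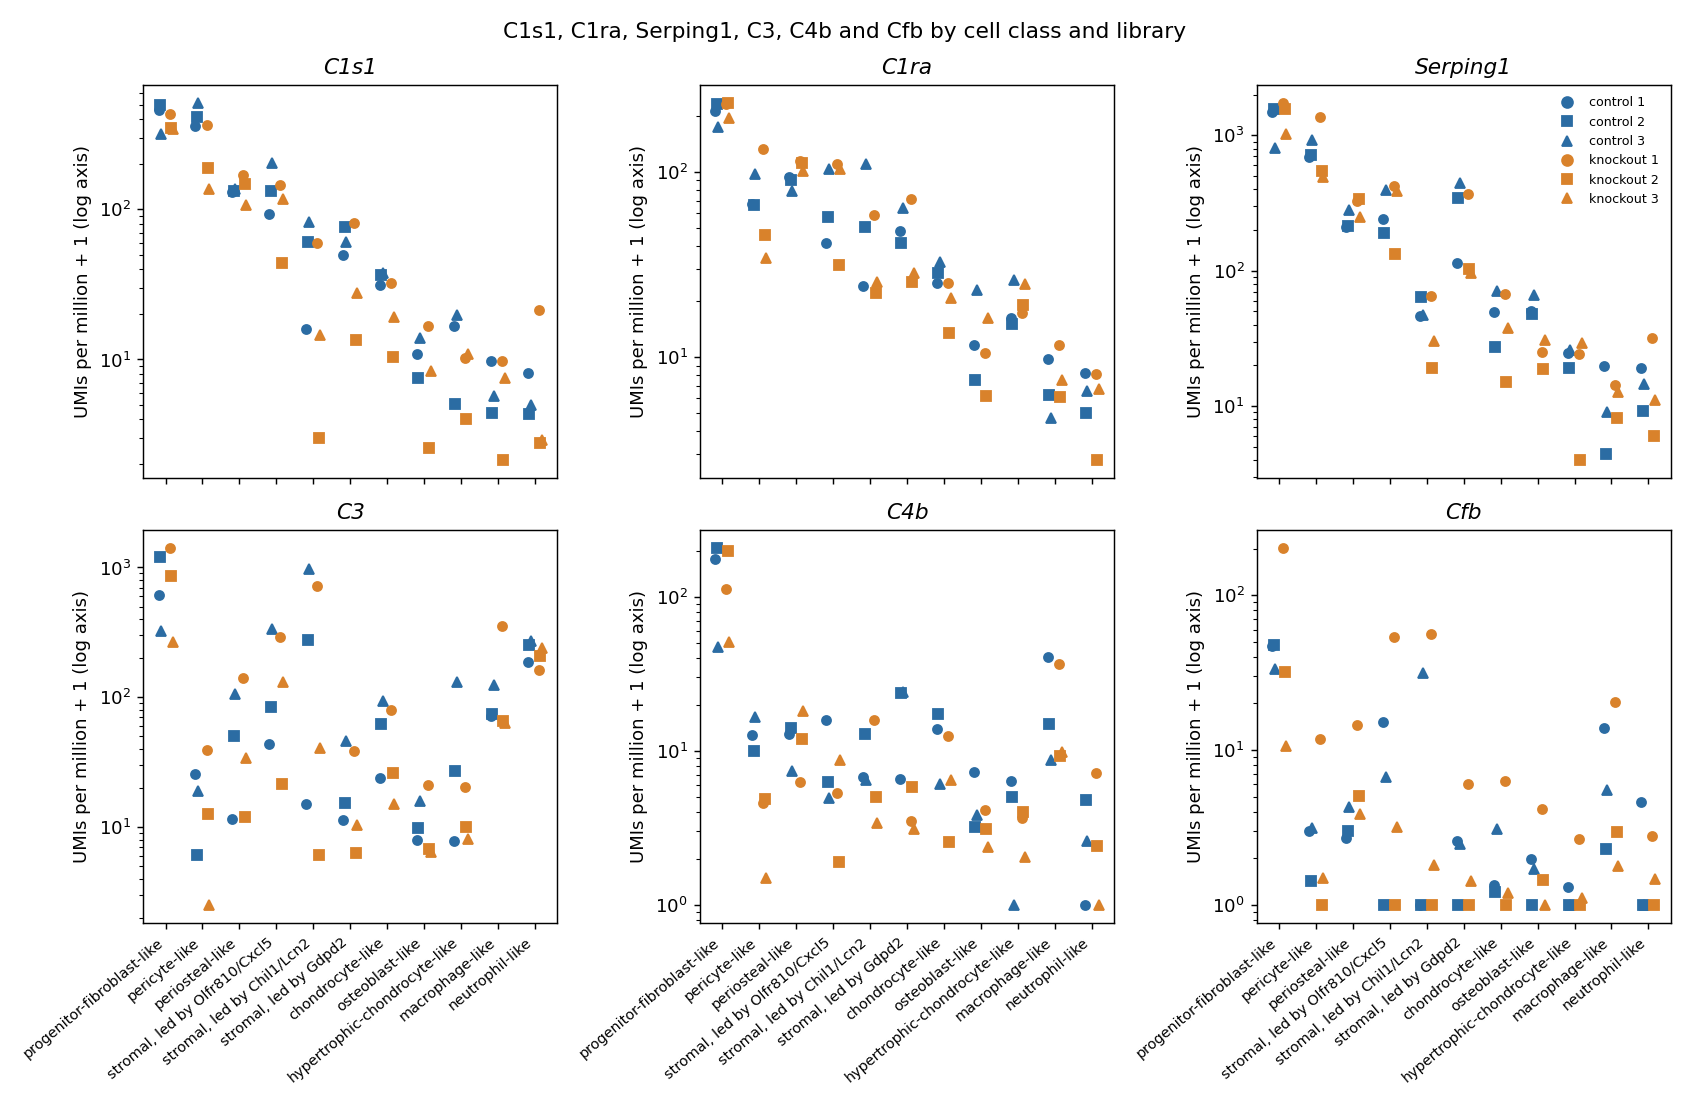
Levels of C1s1, C1ra, Serping1, C3, C4b and Cfb (CPM + 1, log axis) by class and stromal subtype, 1 point per library. C1s1, C1ra and Serping1 are high in progenitor-fibroblast-like, pericyte-like and periosteal-like cells and in the Olfr810-led cluster. Serping1 is also high in the Gdpd2-led cluster of some libraries. They are low in macrophage-like cells, whereas C3 is also high in neutrophil-like cells.

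C3 had several sources at once. Progenitor-fibroblast-like cells had 610, 1206 and 326 CPM in control 1 to 3 and 1415, 863 and 264 in knockout 1 to 3. Neutrophil-like cells varied less, with 187, 254 and 270 in controls and 160, 206 and 237 in knockouts. Monocyte-like cells had 167 to 351, and myeloid-progenitor-like cells, measured in 4 libraries, had 186 to 445. Macrophage-like cells had 70.2, 73.0 and 124 in controls and 355, 64.1 and 61.8 in knockouts, so knockout 1 lay above the 5 other libraries. Thinned shares were 20.016% of progenitor-fibroblast-like, 6.8% of neutrophil-like, 5.3% of macrophage-like and 3.1% of stromal-like cells against 0.5% of endothelial-like cells.

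C3 varied widely between libraries in a pair of inflammatory stromal clusters. In the cluster led by Chil1 and Lcn2, the latter an iron-binding acute-phase protein, C3 stood at 14.1, 274 and 971 CPM in control 1 to 3 and at 721, 5.04 and 39.4 in knockout 1 to 3. In the cluster led by Olfr810 and Cxcl5, a neutrophil chemokine, it stood at 42.5, 82.7 and 336 in controls and 291, 20.6 and 129 in knockouts. Control 3 and knockout 1 were the high libraries in both clusters, and the spread within each group exceeded the difference between the groups. Stromal-like cells as a whole had the same high libraries, with 61.9, 96.0 and 274 in controls and 252, 21.1 and 22.7 in knockouts.

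C4b, the mouse gene of C4, was low outside the progenitor-fibroblast-like cells, where it stood at 175, 207 and 46.3 CPM in control 1 to 3 and at 111, 197 and 50.3 in knockout 1 to 3. Replicate 3 of both groups, which was counted against another gene list, was the lowest of each group there. Macrophage-like cells had 39.8, 13.9 and 7.74 in controls and 35.9, 8.32 and 8.87 in knockouts, with replicate 1 of both groups highest. Of the 91-base windows at the end of C4b, 19.8% were also found in C4a. Cfb was at 46.3, 46.8 and 32.3 in progenitor-fibroblast-like cells of controls and at 201, 30.7 and 9.69 in those of knockouts, and at 0.710 to 34.5 in stromal-like and 0.783 to 19.4 in macrophage-like cells. Knockout 1 was the highest library for Cfb in all 3 of these classes.

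**Figure D4:**
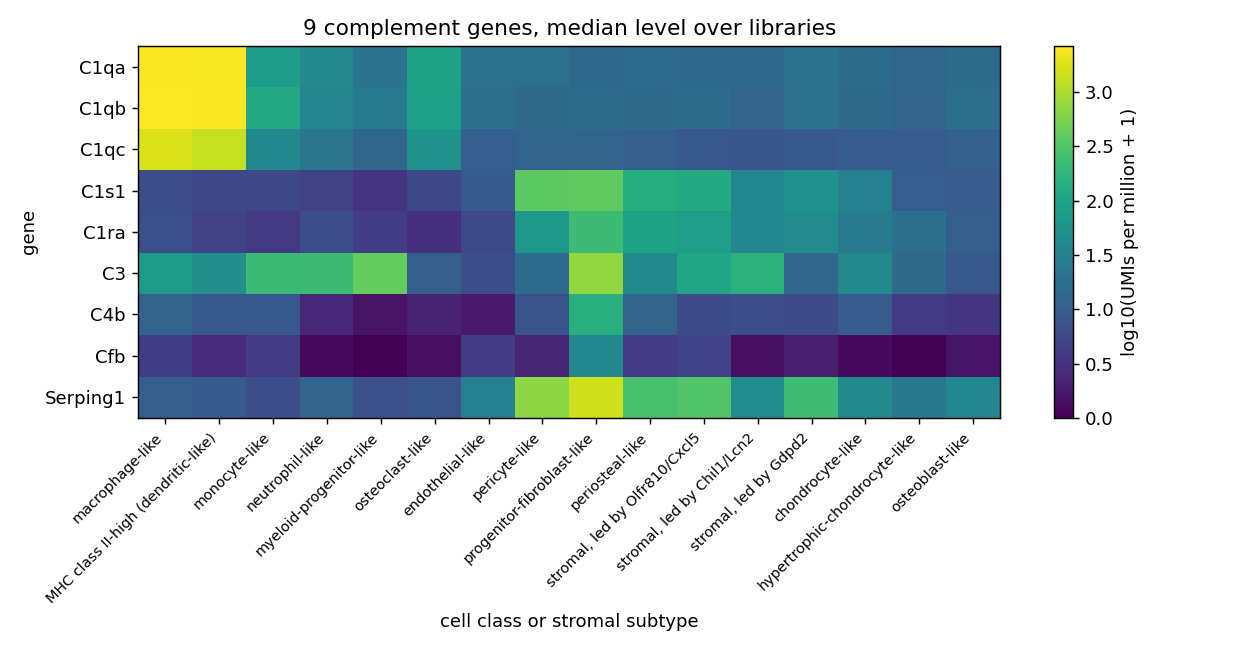
Median level over libraries of the 9 genes in each cell class or stromal subtype, as log10(CPM + 1), with lighter colours for higher levels. The C1q genes fill the macrophage-like and dendritic-like columns. C1s1, C1ra and Serping1 fill the progenitor-fibroblast-like, pericyte-like, periosteal-like and Olfr810-led columns. Serping1 is also high in the Gdpd2-led column, and C3 has entries on both sides.

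Macrophage-like and stromal-like cells of the same library were then set side by side. The log2 ratio of the macrophage-like to the stromal-like level had a median of 7.19 for C1qa (6.27 to 8.20 over 6 libraries), against -3.82 for C1s1 (-4.71 to -2.39), -2.65 for C1ra (-4.41 to -1.99) and -4.01 for Serping1 (-5.71 to -2.99). Each of these 4 genes had the same sign in all 6 libraries. C3 had a median of 0.34 and was higher in macrophage-like cells in 4 libraries, C4b had 0.45 and was higher there in 5, and Cfb had -0.32 and was higher there in 3. For these 3 genes no class was the higher one in every library. The 10 stromal markers together summed to 1658 to 6520 CPM in macrophage-like cells against 71735 to 102600 in stromal-like cells, with none at 0, and their part in the low C1s1, C1ra and Serping1 levels of macrophage-like cells was not tested.

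Cell number as well as level set where the molecules were. Of all C1qa UMIs in a library, macrophage-like cells held a median of 60.7% (58.1% to 72.2%), dendritic-like cells 14.05%, the cluster led by Hist1h2ap 10.5% and stromal-like cells 5.8%. Stromal-like cells held a median of 82.0% of C1s1 UMIs (46.7% to 92.2%), 88.8% of C1ra (72.8% to 94.7%) and 81.3% of Serping1 (49.7% to 91.1%), with pericyte-like cells at 12.5% of both C1s1 and Serping1. For C3 the stromal-like share was 66.0% with a range of 21.3% to 88.9%, neutrophil-like cells held 8.4%, myeloid-progenitor-like cells 8.2% (0.27% to 27.9%), macrophage-like cells 6.5% and monocyte-like cells 3.1%. For C4b it was 74.9%, with 9.4% in macrophage-like cells, and for Cfb 71.7%, with 6.3% in endothelial-like cells. Within the stroma, progenitor-fibroblast-like cells were a median of 3.4% of cells but held 41.6% of C3 UMIs (3.6% to 71.9%), 41.5% of C4b, 43.8% of Cfb, 33.7% of Serping1, 26.1% of C1s1 (7.7% to 43.2%) and 17.9% of C1ra. These shares move with the number of cells captured per class, which for macrophage-like cells ran from 98 in control 1 to 1051 in control 3.

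The comparison between genotype labels asked whether the level of a complement gene within a cell class differed between knockout and control libraries. In macrophage-like cells the C1q sum was 6250 ± 1671 CPM in controls and 8921 ± 3581 in knockouts (SD, n = 3 each). The difference of 2671 was within the spread of the libraries (two-sided exact permutation test, p = 0.3, where the smallest possible p is 0.1). It was 961 without knockout 2 (exact p = 0.6), 4532 without knockout 1 (exact p = 0.2) and 2521 without the library labelled knockout 3 (exact p = 0.6). In dendritic-like cells, whose values are given above, the groups did not overlap (exact p = 0.1), beside 3.26% of genes tested in that class that lay higher in every knockout library.

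Across all genes the edgeR quasi-likelihood test with Benjamini-Hochberg adjustment called 0 of 11385 genes in macrophage-like cells (192 at an unadjusted p under 0.05, and 0 by DESeq2, with 221 unadjusted), a background of 0%. All 9 members passed the filter on low counts, none was called, 7 of 9 had a fold change above 0, and their median log2 fold change of knockout against control was 0.37 beside 0.01 over all genes. The log2 fold changes were 0.59 (SE 0.38) for C1qa, 0.51 (SE 0.39) for C1qb and 0.50 (SE 0.38) for C1qc, with adjusted p = 1.00 for each by edgeR. C3 had 0.75 (SE 0.65), and the other members lay between -0.15 for C4b and 0.37 for C1ra. Without the library labelled knockout 3, C1qa had 0.59, C1qb 0.45, C1qc 0.44 and C3 1.12. Of all genes tested there, 2.97% lay higher in every knockout library than in every control library, and no member did.

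In stromal-like cells edgeR called 0 of 18225 genes (267 unadjusted, and 0 by DESeq2, with 491 unadjusted), a background of 0%. The 3 C1q genes lay higher in every knockout library than in every control library, as did 1.24% of the genes tested. Their log2 fold changes were 1.64 (SE 0.42, unadjusted p = 0.0055) for C1qa, 1.55 (SE 0.38, unadjusted p = 0.0043) for C1qb and 1.59 (SE 0.36, unadjusted p = 0.0025) for C1qc. None passed the threshold, with edgeR adjusted p = 1.00 for each, and 1.47% of genes tested had an unadjusted p under 0.05. Without the library labelled knockout 3 the fold changes were 1.80, 1.60 and 1.61. The C1q sum was 33.2 ± 10.9 in controls and 91.04 ± 35.2 in knockouts (SD, n = 3 each, exact permutation p = 0.1, the smallest the design allows).

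C1q was also higher in the knockout libraries in other classes. The C1q sum was higher in every knockout library in 10 of 12 stromal subtypes and clusters. In each of these 12, 1.93% to 4.13% of genes tested lay higher in every knockout library. The C1q sum was also higher in 6 of 7 classes other than the macrophage-like and dendritic-like classes and the cluster led by Hist1h2ap. The stromal-like and monocyte-like classes were among them, and the share of genes tested over these 7 classes was 1.24% to 5.30%. Neutrophil-like cells had 75.4, 38.5 and 53.6 CPM in control 1 to 3 and 115, 187 and 129 in knockout 1 to 3, where 2.27% of genes tested were likewise higher in every knockout library. Endothelial-like cells had 37.1, 19.2 and 36.2 in controls and 47.5, 162 and 90.0 in knockouts, with a background of 4.88%. Chondrocyte-like cells, the cells targeted by the Cre, had 32.9, 18.0 and 24.4 in controls and 46.7, 116 and 57.5 in knockouts, with a background of 1.93%. Progenitor-fibroblast-like cells had 32.45, 21.1 and 23.6 in controls and 48.2, 130.2 and 74.5 in knockouts, with a background of 2.8%. Without the library labelled knockout 3 the log2 fold change of C1qa was 1.36 in neutrophil-like, 2.11 in endothelial-like, 1.74 in chondrocyte-like and 1.72 in progenitor-fibroblast-like cells. In stromal-like cells 6 of the 10 macrophage markers were also higher in every knockout library. Pf4 had a log2 fold change of 1.23 (SE 0.33) and Ms4a7 1.17 (SE 0.34), both with edgeR adjusted p = 1.00. C1q and these markers thus lay on the same side in stromal-like cells, and the part of free macrophage RNA in the stromal C1q difference was not tested.

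**Figure D5:**
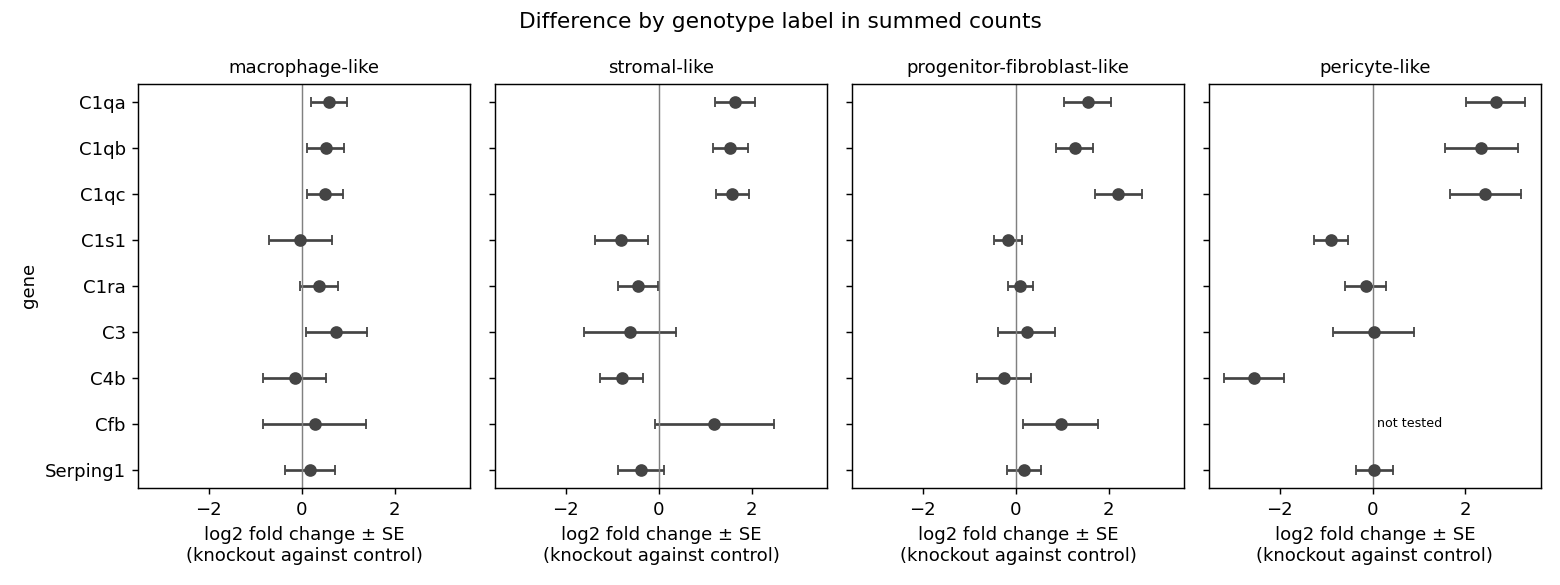
Log2 fold change of knockout against control with its SE for the 9 genes in summed counts, from edgeR over 6 libraries. The panels show macrophage-like, stromal-like, progenitor-fibroblast-like and pericyte-like cells, and a gene not tested in a class is marked so. The C1q genes lie near 0.5 in macrophage-like and near 1.6 in stromal-like cells, and no gene passed an adjusted p of 0.05.

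The stromal members showed no called difference. In stromal-like cells C1s1 had a log2 fold change of -0.80 (SE 0.56), C1ra -0.45 (SE 0.43), Serping1 -0.38 (SE 0.50), C3 -0.61 (SE 0.98), C4b -0.79 (SE 0.46) and Cfb 1.198 (SE 1.29). Without the library labelled knockout 3 they were -0.61 for C1s1, -0.36 for C1ra, -0.14 for Serping1, -0.17 for C3, -0.61 for C4b and 1.75 for Cfb. The lowest values came without knockout 1, at -1.67 for C1s1, -0.98 for C1ra, -1.16 for Serping1, -2.56 for C3, -1.23 for C4b and -2.35 for Cfb, none of them called by edgeR. The median of all 9 members was -0.38 beside 0.00 over all genes. C1s1 was at 76.9, 82.8 and 123 CPM in controls and 110, 18.2 and 34.3 in knockouts, so that knockout 1 lay within the controls and knockout 2 was lowest. Knockout 2 is also the library with the most osteoblast-like cells, which hold little C1s1, and the part of cell makeup in its low value was not tested. Within progenitor-fibroblast-like cells, C1s1 differed by -0.16 (SE 0.30), C1ra by 0.10 (SE 0.27), Serping1 by 0.18 (SE 0.37), C3 by 0.24 (SE 0.61), C4b by -0.25 (SE 0.57) and Cfb by 0.97 (SE 0.81) on the log2 scale. Without the library labelled knockout 3 these were -0.11, 0.17, 0.37, 0.66, 0.12 and 1.49 in the same order.

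Over the 22 classes, subtypes and clusters tested in all 6 libraries, no member was called in any. C1qa had a fold change above 0 in 21 of 22, C1qb in 21 of 22 and C1qc in 20 of 21, and their lowest adjusted p was 0.779 by edgeR. C1s1 was below 0 in 15 of 17, Serping1 in 10 of 20, C1ra in 9 of 16 and C3 in 13 of 21. The classes share libraries, so these counts are not independent of one another. Free RNA shared between classes was not tested. With the library labelled knockout 3 left out no member was called either, and 8 of 130 member fold changes in the 20 units other than macrophage-like and stromal-like cells took another sign, none of them of a C1q gene.

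Outside the C1q genes, 8 member results in these 22 units had groups that did not overlap, and none of them was called. The units tested were 17 for C1s1, 16 for C1ra, 21 for C3, 10 for C4b, 5 for Cfb and 20 for Serping1. Of all genes tested, 3.91% to 11.9% per unit had groups that did not overlap in either direction. The 8 results are therefore listed as a description only. Serping1 in osteoblast-like cells was at 49.3, 47.0 and 64.7 in controls and 24.3, 17.8 and 29.9 in knockouts (log2 fold change -1.11, SE 0.27, edgeR adjusted p = 0.877), where 5.15% of genes tested were lower in every knockout library, and its fold change was -1.33 without the library labelled knockout 3. C4b in pericyte-like cells was at 11.6, 8.97 and 15.7 in controls and 3.59, 3.88 and 0.502 in knockouts (log2 fold change -2.54, SE 0.65, edgeR adjusted p = 0.944), with a background of 5.06% and a fold change of -1.72 without that library. In monocyte-like cells C4b was higher in every knockout library, at 4.38, 6.73 and 4.87 in controls and 69.96, 8.28 and 16.5 in knockouts (log2 fold change 2.38, SE 0.74, edgeR adjusted p = 1.00, background 3.35%, 2.59 without that library). In the stromal cluster led by Gdpd2 it was lower, at 5.54, 22.8 and 23.2 in controls and 2.52, 4.85 and 2.12 in knockouts (log2 fold change -2.15, SE 0.59, edgeR adjusted p = 0.921, background 7.78%, -1.87 without that library). The sign of the fitted C4b difference thus was not the same in these classes, and the difference between them was not tested. Several of these C4b values rest on few UMIs near the floor. Pericyte-like cells held 0.332%, 0.546% and 0.217% of the 904, 366 and 461 C4b UMIs in knockout 1 to 3. Monocyte-like cells of control 1 held 0.076% of 1318, and the Gdpd2-led cluster of knockout 1 held 0.144% of that library's stromal C4b UMIs. C1ra in periosteal-like cells, given above, was higher in every knockout library (log2 fold change 0.31, SE 0.21, edgeR adjusted p = 1.00), with a background of 3.16% and a fold change of 0.32 without that library. In the few-UMI stromal cluster it was lower, at 40.3, 62.8 and 83.35 in controls and 30.6, 16.9 and 14.6 in knockouts (log2 fold change -1.45, SE 0.50, edgeR adjusted p = 1.00, background 2.81%, -1.24 without that library). In control 2 that cluster held 63699 UMIs of all genes, so its value rests on few C1ra UMIs. C3 was lower in 2 clusters. In the stromal cluster led by Col10a1 it was at 46.5, 46.6 and 246.7 in controls and 40.05, 8.04 and 11.4 in knockouts (log2 fold change -2.50, SE 0.77, edgeR adjusted p = 0.940, background 4.29%, -2.27 without that library). In the cluster led by Hist1h2ap it was at 45.2, 32.4 and 25.2 in controls and 21.02, 24.4 and 15.1 in knockouts (log2 fold change -0.65, SE 0.31, edgeR adjusted p = 1.00, background 3.86%, -0.47 without that library).

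The precision of these tests was limited. When counts were simulated from these libraries, a change of 1 on the log2 scale was found for 5.97% of changed genes in macrophage-like cells and 0% in stromal-like cells, a change of 2 for 65.7% and 26.9%, and a change of 3 for 87.9% and 60.6%.

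The rest of the pathway was read from a list of 44 other complement genes, of which 23 reached 10 CPM in at least 1 class. Recognition molecules and proteases were spread over the same compartments. C2, the partner of C4, was highest in progenitor-fibroblast-like cells (mean 59.7 CPM), as was Masp1, a protease of the lectin route (27.9). Of the collectins, Colec11 was highest in pericyte-like cells (64.7). Colec12 had like means in the stromal cluster led by Gdpd2 (348), chondrocyte-like cells (328) and periosteal-like cells (320). The ficolin genes were myeloid, with Fcna highest in macrophage-like cells (35.9) and Fcnb in myeloid-progenitor-like cells (562). Cfp, which encodes properdin, the stabiliser of the alternative convertase, had like means in macrophage-like (390) and dendritic-like cells (389). Among regulators, Cd55, which speeds the decay of C3 convertases on the cell surface, was highest in progenitor-fibroblast-like cells (98.9). The anaphylatoxin receptor C3ar1 was highest in macrophage-like cells (417) and C5ar1 in neutrophil-like cells (382). Of the terminal components only C6 reached the limit, in the few-UMI stromal cluster. Its mean of 12.4 there came from values spread from 0 to 62.8 over 6 libraries. None of the list was called in either direction in any of the 22 units tested, and its median log2 fold change was 0.02 over the 16 genes tested in macrophage-like cells and 0.22 over the 23 tested in stromal-like cells, beside 0.01 and 0.00 over all genes. Of the 22 units, periosteal-like cells had the highest median, 0.63 over 15 genes, beside 0.01 over all genes. They also had the largest count with an unadjusted p under 0.05 by edgeR, 6 of these 15, and 0 were called. Of all genes tested in that class, 2.12% had an unadjusted p under 0.05.

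Genes with the most similar pattern over 17 named classes and subtypes were found by Pearson's r of mean log2(CPM + 1), as a description. For the C1q sum they were Ms4a7 (0.98), Kcnk13 (0.97), Pf4 (0.96), Ccl12 (0.96) and C3ar1 (0.95). Ms4a7 and Pf4 were among the markers that named the macrophage-like class, so their place follows in part from the naming. For C1s1 and C1ra together they were Rian (0.97), Vgll3 (0.97), Meg3 (0.97), Bdnf (0.96) and Igfbp5 (0.96), where Rian and Meg3 are noncoding RNAs of 1 imprinted cluster. For C3 they were Hgf (0.91), Fgd4 (0.82), Pi16 (0.82), Prdx5 (0.81) and Gm37747 (0.81).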

How the data were processed

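Single cells of fracture callus were profiled as 6 libraries, 3 per group, with the 10x Chromium 3′ kit (V3). The authors counted unique molecular identifiers (UMIs) against GRCm38, as the submitters' processing notes state, using Cell Ranger 6.1.2, or 6.1.1 where the replicate number is 1. The deposited files give these UMI counts unnormalized for barcodes called as cells. The gene list of replicate 3 differed in both groups, so genes were joined by identifier, and at least 97.77% of each library's UMIs fell in shared genes.

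The filter on cells required 500 UMIs and 200 genes, with 20% mitochondrial UMIs as the upper limit. Scrublet (scanpy 1.11.5) scored doublets. The top-scoring cells, 0.8% per 1000 cells of a library, were dropped (3046 cells in all), while its automatic threshold would have marked 0 to 311 per library. From 2000 variable genes, none of them a complement gene, 30 principal components were integrated by RPCA in Seurat 5.3.0. Leiden clustering (leidenalg 0.10.2, 20 neighbours, resolution 0.8) was run on all cells and again within the stroma. A class name required 3 or more markers of the class. Each had to be present in 25% of the cluster's cells or more and at 2 times the median cluster or more. A cluster stayed unnamed if markers of another class led it, if its doublet scores were high, or if few UMIs came with no own marker leading. In the stroma an own marker also had to be among the leading genes. Unnamed clusters were called by their leading genes. Those led by Olfr810, Cenpf, Col10a1 and Gdpd2 met the marker rule but failed a later one. UMI counts were summed per library and class, and levels are given as CPM. Genotype labels were compared by the quasi-likelihood F test of edgeR 4.0.16, two-sided, after filterByExpr and TMM scaling, with Benjamini-Hochberg adjustment over all genes tested and a threshold of 0.05, in libraries with 10 cells of the class or more. The SE was derived from the fold change and its F statistic. Sums over genes were compared by exact permutation over the 20 assignments (numpy 2.4.6). DESeq2 1.42.0 served as an alternative, and the fits were tested on simulated data. Shares of cells with a UMI were taken with every cell reduced at random to 500 UMIs.

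The members, the complement list, the markers and the alternatives were chosen with earlier results of these data known. The genes named are the 9 members, the listed complement genes at 10 CPM or more in a class, and the 5 genes most like each of 3 patterns. Xist, Ddx3y, Piezo1 and the markers fall outside that rule and were named after their values were seen. P-values measure the spread between these libraries only.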

Additional observations from a re-analysis of the deposited data

How the results depend on the processing

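No alternative took any of the 9 genes past the threshold. The difference of the C1q sum in macrophage-like cells was above 0 in all settings tried, with 961 to 4532 CPM when 1 library was left out. Its exact test cannot go below 0.1, so staying above the threshold says nothing about stability. The median macrophage-like to stromal-like ratio of C1q was 136, and 120 to 152 when 1 library was left out. Without removal of doublets it was 95.9, and without the stromal clusters led by other cells' genes or by few-UMI cells, a choice made after seeing the data, it was 172. Without the filter on low counts edgeR called 27 of 23019 genes in macrophage-like cells, none of them a member, against 0 with the filter; the cause was not tested.

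The correlation of same-numbered deviations was 0.0148, -0.0462 and -0.0819 in macrophage-like cells and 0.2563, -0.0927 and -0.1764 in stromal-like cells. Only replicate 1 in stromal-like cells correlated better with its own number than with the others. Replicate 1 of both groups also shared a Cell Ranger version and a large few-UMI stromal cluster, and replicate 3 a gene list. With the replicate block 0 genes were called in both classes (168 and 199 unadjusted).

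Of 143 member results outside the leave-one-out settings 9 changed sign, and the cause was not tested. In macrophage-like cells these were C1s1 at 0.19 with the stricter cell filter, 0.15 without integration and 0.025 without the few-UMI cluster, C4b at 0.32 without integration, Cfb at -0.27 with the replicate block and Serping1 at -0.0018 without replicate 3 of both groups. In stromal-like cells they were C3 at 0.75 and Serping1 at 0.11 without replicate 3 of both groups, and Cfb at -0.70 with the replicate block. Leaving out 1 library changed the sign of 11 of 108. In macrophage-like cells C1s1 ranged from -0.49 to 0.50, C3 from -0.51 to 1.15, C4b from -1.06 to 0.58, Cfb from -1.88 to 1.04 and Serping1 from -0.24 to 0.75. In stromal-like cells C3 ranged from -2.56 to 0.31, Cfb from -2.35 to 1.75, C1s1 from -1.67 to -0.41, C1ra from -0.98 to -0.13, Serping1 from -1.16 to -0.07 and C4b from -1.23 to -0.58, while C1qa ranged from 1.18 to 1.88. In other classes 8 of 130 member results took another sign without knockout 3, a setting added after seeing the data, and 0 were called. With 3 libraries per group and 98 macrophage-like cells in the smallest library, changes of 1 on the log2 scale were mostly not detectable.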

Other observations

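In myeloid-progenitor-like cells, which had enough cells in 4 libraries, the C1q sum was 19.7 and 29.4 CPM in control 2 and 3 and 185 and 83.2 in knockout 2 and 3. Monocyte-like cells of knockout 1 held a C1q sum of 1248 CPM over 68 cells, against 238 and 329 in knockout 2 and 3. C3 in dendritic-like cells was 35.6, 43.2 and 54.8 in control 1 to 3 and 420, 61.0 and 38.0 in knockout 1 to 3, and Cfb in those cells was 20.8 in knockout 1 and 0.825 to 7.11 elsewhere.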
